A study of Mus musculus with 7 samples.

Results

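Autophagy is the route by which a cell wraps part of its cytoplasm in a double membrane, the autophagosome, and delivers it to the lysosome for breakdown, and mitophagy is the same route taken by damaged mitochondria. In the heart, whose cardiomyocytes are rarely replaced, it is known for clearing worn proteins and mitochondria. The genes described here cover that route in order: the transcription factor Tfeb, the kinase Ulk1 that starts it, Becn1 of the lipid kinase complex that nucleates the membrane, the conjugation factors Atg7 and Atg5, the membrane proteins Map1lc3a, Map1lc3b and Gabarapl1, the cargo receptor Sqstm1, and the mitophagy receptor Bnip3l. These 10 genes are called the member genes. They were measured by every probe set that the platform annotation assigns to 1 of them and to no other gene, which gave 25 of the 45037 probe sets and 9 of the 18193 genes. Bnip3l had 3 probe sets, all of which also name its pseudogene, so no value is given for it.

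RNA came from the whole heart of each of 7 mice aged 7 months, with an Affymetrix array for each, and every mouse carried the mdx mutation, which removes dystrophin from muscle and models Duchenne muscular dystrophy. In the 4 mdx HRTΔIKKβ hearts (Myh6-cre;IKKβΔ), Cre under the Myh6 promoter, active in cardiomyocytes, had removed IKKβ, a kinase upstream of NF-κB. The 3 mdx IKKβf/f hearts had the floxed gene and served as the control, with no Cre named in their labels, so that Cre itself and the loss of IKKβ cannot be told apart. The question addressed here was whether the RNAs of the autophagy machinery differed once cardiomyocytes of the dystrophic heart lacked IKKβ. RNA levels alone do not give the amount of protein, the number of autophagosomes or the rate of autophagy. Values are log2 expression after RMA, hearts are given in the order of their replicate numbers, and differences (mdx HRTΔIKKβ minus mdx IKKβf/f) carry the standard error from a limma fit over all probe sets.

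Array medians ran from 6.73 to 6.75. All 10 cardiomyocyte markers were measured, 1 with a higher and 9 with a lower mean in mdx HRTΔIKKβ hearts (median difference −0.01). Their summed level (mean of centred log2 values) was −0.01 to 0 in mdx HRTΔIKKβ hearts and −0.02 to 0.03 in mdx IKKβf/f hearts. In every heart 9 of the 10 lay above 14, near the array maximum of 15.09, where a difference in cardiomyocyte content could go unseen. Ikbkb, which encodes IKKβ, was at 8.44, 8.86, 8.75 and 8.82 in mdx HRTΔIKKβ hearts and at 8.82, 9.03 and 8.86 in mdx IKKβf/f hearts by its brightest probe set (−0.18 ± 0.11, adjusted p = 0.80). Its other probe sets differed less, by −0.019, −0.065, −0.077 and 0.022. The study reported reduced Ikbkb in mdx HRTΔIKKβ hearts by qPCR on whole-heart RNA. Whole hearts also hold cells that do not use Myh6, and where the Ikbkb probes lie relative to the deleted part was not examined. Fewer cells of a type and less RNA per cell cannot be told apart in such samples. Other tissue was uneven: the 13 fast skeletal muscle markers had a summed level from −1.26 to 0.08 in mdx HRTΔIKKβ hearts and from −1.06 to 3.97 in mdx IKKβf/f hearts, with the highest value in control 1. All 13 had a lower mean in mdx HRTΔIKKβ hearts.

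The promoters of 4 member genes are shown, those of Ulk1 and Sqstm1 because they had the lowest differences between the groups, and those of Atg7 and Atg5 because they hold the 6-base E-box core CACGTG to which TFEB and related factors bind. Each sequence is the 250 bases before the RefSeq start of the gene in GRCm38.p6, 5′ to 3′ in the direction of the gene, with CACGTG and the GC box GGGCGG (either strand) in capitals. Ulk1 lies at chr5:110810082-110810331 on the minus strand, Sqstm1 at chr11:50210821-50211070 on the minus strand, Atg7 at chr6:114670846-114671095 on the plus strand and Atg5 at chr10:44268089-44268338 on the plus strand.
Ulk1: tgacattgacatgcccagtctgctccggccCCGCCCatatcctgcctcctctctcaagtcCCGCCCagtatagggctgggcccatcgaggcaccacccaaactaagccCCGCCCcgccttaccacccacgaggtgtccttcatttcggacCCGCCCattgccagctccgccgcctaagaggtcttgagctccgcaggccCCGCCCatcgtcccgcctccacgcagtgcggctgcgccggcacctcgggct
Sqstm1: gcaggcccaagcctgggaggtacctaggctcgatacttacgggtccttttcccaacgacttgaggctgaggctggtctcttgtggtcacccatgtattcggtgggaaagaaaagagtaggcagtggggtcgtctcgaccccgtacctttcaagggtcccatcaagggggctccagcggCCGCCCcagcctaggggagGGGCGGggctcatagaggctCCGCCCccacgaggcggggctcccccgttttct
Atg7: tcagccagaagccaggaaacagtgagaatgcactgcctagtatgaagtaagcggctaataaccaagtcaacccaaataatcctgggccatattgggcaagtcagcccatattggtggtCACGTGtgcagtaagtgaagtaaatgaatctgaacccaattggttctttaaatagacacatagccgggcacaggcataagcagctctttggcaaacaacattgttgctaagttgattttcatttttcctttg
Atg5: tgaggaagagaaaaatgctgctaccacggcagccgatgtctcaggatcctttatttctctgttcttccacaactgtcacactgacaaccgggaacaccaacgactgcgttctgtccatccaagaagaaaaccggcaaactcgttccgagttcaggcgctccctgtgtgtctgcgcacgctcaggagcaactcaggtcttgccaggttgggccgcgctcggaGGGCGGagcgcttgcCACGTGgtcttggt

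The Ulk1 window holds 5 GC boxes and no E-box, and 67.2% of its bases are G or C. Sqstm1 has 3 GC boxes, Atg7 has its E-box 132 bases before the start, and Atg5 has an E-box 14 and a GC box 29 bases before it. Windows were found for 7 of the member genes (9 windows, since Tfeb has more than 1 start). CACGTG was present in 2 of the 9 member windows (2 of the 7 genes), beside 6.02% of all 32851 windows of this length. GGGCGG was present in 8 of the 9 (6 of the 7 genes), beside 32.7% of all windows. The forkhead motif GTAAACA (3.17% of windows) was not in any member window. The κB motif was searched only in a narrow form with most letters fixed (1.41% of windows), and no member window held that form. Other forms of the κB site were not searched, so whether member windows hold them was not tested. The motif matches describe letters only.

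No member gene passed an adjusted p of 0.05, and the adjusted p-values of the 25 probe sets ran from 0.80 to 0.99 (limma, Benjamini-Hochberg over all probe sets). The same held for the whole array, where 0% of probe sets passed. At an unadjusted p of 0.05, 0 of 9 member genes were higher and 1 was lower, Ulk1 (11.1%), beside 3.25% of all 18193 genes that were higher and 2.95% that were lower. By its brightest probe set, 3 member genes had a higher and 6 a lower mean in mdx HRTΔIKKβ hearts, and their median difference was −0.08, beside −0.01 for all genes. The differences were small: all 25 had a 95% interval inside 1.5-fold (0.58 on the log2 scale). The lowest bound was −0.57, of Ulk1, and the highest was 0.39, of the dimmest Map1lc3b probe set.

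**Figure D1:**
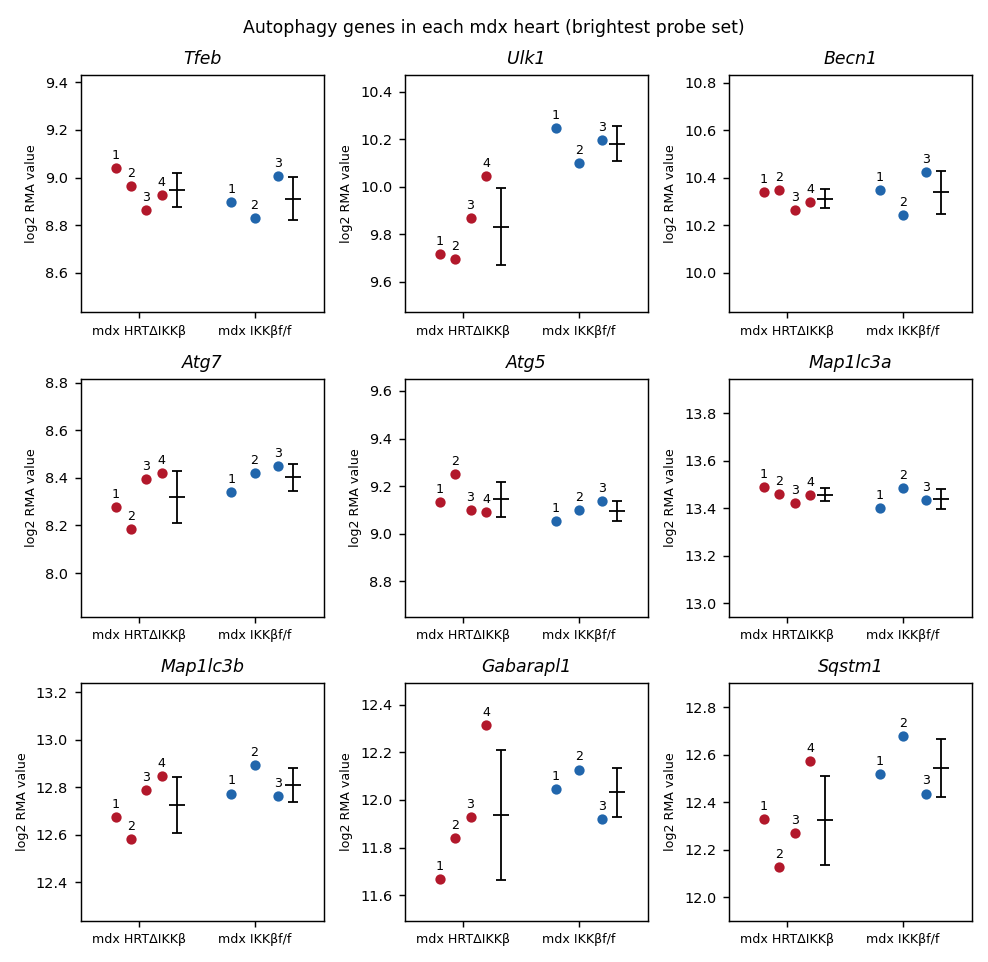
Log2 RMA value (vertical axis, a span of 1 log2 unit in each panel) of the 9 measured member genes by their brightest probe set, with the 4 mdx HRTΔIKKβ hearts (red) left of the 3 mdx IKKβf/f hearts (blue). Points are hearts marked with their replicate number, and bars are the mean ± SD of a group; Ulk1 is the panel in which the groups do not overlap.

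Tfeb, the transcription factor that switches on lysosomal and autophagy genes, had 1 probe set and did not differ. It was at 9.04, 8.96, 8.86 and 8.93 in mdx HRTΔIKKβ hearts and at 8.90, 8.83 and 9.01 in mdx IKKβf/f hearts (0.04 ± 0.07, adjusted p = 0.92). The highest heart was an mdx HRTΔIKKβ heart and the lowest a control, with every other value in between. Its relatives Tfe3, Mitf and Tfec, which bind the same E-box, differed by 0.004 ± 0.11, 0.005 ± 0.06 and 0.11 ± 0.19, and the sign of these small values turned with the scaling or with the hearts kept for Tfe3, Mitf and Tfec, as it did for Tfeb.

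Ulk1, the kinase that starts autophagosome formation when nutrients or energy run low, was the member gene that stood furthest from the controls. Its brighter probe set was at 9.72, 9.70, 9.87 and 10.05 in mdx HRTΔIKKβ hearts and at 10.25, 10.10 and 10.20 in mdx IKKβf/f hearts. Every heart with the deletion lay below every control, although mdx HRTΔIKKβ heart 4 came within 0.1 of the lowest control, heart 2. The difference was −0.35 ± 0.09, or a ratio of 0.785, with a 95% interval from −0.57 to −0.13 (unadjusted p = 0.0064, adjusted p = 0.80). This was the only member probe set without overlap, 4% of the 25, beside 5.44% of all probe sets on the array.

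The second, dimmer Ulk1 probe set gave 8.27, 8.29, 8.47 and 8.64 in mdx HRTΔIKKβ hearts and 8.78, 8.58 and 8.60 in mdx IKKβf/f hearts (−0.24 ± 0.10, unadjusted p = 0.053). Both probe sets put the 4 mdx HRTΔIKKβ hearts close to the same order, with hearts 1 and 2 low and heart 4 high, but in the dimmer one heart 4 lay among the controls. Control 1, the heart with the highest skeletal muscle markers, also had the highest Ulk1 in both sets. Without control 1 the difference by the brighter set was −0.32 (unadjusted p = 0.027, adjusted p = 0.91), and without mdx HRTΔIKKβ heart 4 it was −0.42 (unadjusted p = 0.00091, adjusted p = 0.73). Macrophage markers also moved with the groups, with 13 of 15 at a higher mean and a summed level from −0.15 to 0.29 in mdx HRTΔIKKβ hearts and from −0.31 to −0.07 in mdx IKKβf/f hearts. Atrial markers were higher by their means in 6 of 6, with summed levels from −0.30 to 1.23 in mdx HRTΔIKKβ hearts and from −2.01 to 0.43 in mdx IKKβf/f hearts. B and plasma cell markers had higher means in 5 of 5 measured, with summed levels from −0.29 to 2.42 in mdx HRTΔIKKβ hearts and from −1.63 to −0.24 in mdx IKKβf/f hearts. The same held for 5 of 5 adipocyte markers, from −0.24 to 1.91 in mdx HRTΔIKKβ hearts and from −1.10 to 0.09 in mdx IKKβf/f hearts. Fibroblast markers had a higher mean in 5 of 6, with nearly equal summed levels, −0.23 to 0.16 in mdx HRTΔIKKβ hearts and −0.27 to 0.15 in controls. Endothelial markers had 2 higher and 4 lower means, with −0.14 to 0.18 in mdx HRTΔIKKβ hearts and −0.08 to 0.08 in controls. The part of these marker lists, and of the fast skeletal muscle markers, in the Ulk1 difference was not tested.

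The other subunits of the ULK1 complex did not share 1 direction. Atg13, the adaptor through which the kinase is held and switched, was at 9.56, 9.49, 9.29 and 9.33 in mdx HRTΔIKKβ hearts and at 9.04, 9.29 and 9.15 in mdx IKKβf/f hearts (0.26 ± 0.09, unadjusted p = 0.023, adjusted p = 0.80). All 4 hearts with the deletion lay above the controls, the lowest of them only just, and without control 1 the difference was 0.20 (unadjusted p = 0.089). The scaffold Rb1cc1 (FIP200) differed by −0.15 ± 0.09 and Atg101, which binds Atg13, by −0.09 ± 0.06, both with overlapping groups. Of the 5 genes listed for this step, which include the related kinase Ulk2 (−0.09 ± 0.06), 1 had a higher and 4 a lower mean.

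Becn1, the Beclin 1 subunit of the class III lipid kinase that marks the site of the new membrane, was close to level. Its brightest probe set was at 10.34, 10.35, 10.26 and 10.30 in mdx HRTΔIKKβ hearts and at 10.35, 10.24 and 10.43 in mdx IKKβf/f hearts (−0.03 ± 0.06, adjusted p = 0.94). The controls spanned the whole range of the hearts with the deletion. Becn1 had 4 further probe sets, which differed by 0.06, −0.09, −0.05 and −0.12, so that 1 of the 5 had a higher mean. Among the 12 genes of this step, 5 had a higher and 7 a lower mean and none passed an unadjusted p of 0.05. The catalytic subunit Pik3c3 differed by −0.21 ± 0.14, the membrane protein Vmp1 by 0.16 ± 0.09 and Sh3glb1, a partner of Beclin 1, by −0.10 ± 0.07.

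Atg7, the enzyme that activates ubiquitin-like proteins for coupling to the membrane, was at 8.28, 8.19, 8.40 and 8.42 in mdx HRTΔIKKβ hearts and at 8.34, 8.42 and 8.45 in mdx IKKβf/f hearts (−0.08 ± 0.07, adjusted p = 0.83). Hearts 1 and 2 with the deletion were below the controls and hearts 3 and 4 were among them. Its other probe sets differed by −0.02, 0.06 and −0.01, and the last of these lay below the 25th percentile of all 7 arrays. Atg5, which is joined to Atg12 to form part of the enzyme that lipidates the membrane proteins, was at 9.14, 9.25, 9.10 and 9.09 in mdx HRTΔIKKβ hearts and at 9.05, 9.10 and 9.14 in mdx IKKβf/f hearts (0.05 ± 0.06, adjusted p = 0.87). Heart 2 with the deletion was the highest and control 1 the lowest, and the rest overlapped.

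The 2 other Atg5 probe sets also had higher means in mdx HRTΔIKKβ hearts, by 0.06 ± 0.06 and 0.10 ± 0.07. The first of them gave an identical 8.33 in 5 of the 7 hearts, so that its difference rests on heart 2 with the deletion (8.45) and control 1 (8.25) alone. Values identical to every digit of the file were present in 6 member probe sets, in 4 of them between 2 hearts. Among the 11 conjugation genes, 4 had a higher and 7 a lower mean, and none passed an unadjusted p of 0.05: Atg12 differed by −0.13 ± 0.07, Atg10, which attaches it to Atg5, by −0.19 ± 0.10, and the protease Atg4c by 0.23 ± 0.12. Atg4c was at 0.37 without control 3 (unadjusted p = 0.0056) and at 0.15 without control 2.

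The ATG8 proteins are coupled to lipid and coat the autophagosome, where they recruit cargo. Map1lc3a, which encodes LC3A, had the narrowest range over the 7 hearts of the 9 genes, with 13.49, 13.46, 13.42 and 13.46 in mdx HRTΔIKKβ hearts and 13.40, 13.49 and 13.44 in mdx IKKβf/f hearts (0.02 ± 0.05, adjusted p = 0.95). The hearts of both groups shared 1 narrow range, and the second probe set differed by 0.03 ± 0.08. Map1lc3b, which encodes the LC3B used as the usual marker of autophagosomes, was at 12.68, 12.58, 12.79 and 12.85 in mdx HRTΔIKKβ hearts and at 12.77, 12.89 and 12.77 in mdx IKKβf/f hearts (−0.09 ± 0.08, adjusted p = 0.84). Hearts 1 and 2 with the deletion were again the lowest. Its 2 next brightest probe sets differed by −0.09 and −0.02, while the dimmest differed the other way, by 0.18 ± 0.09 (unadjusted p = 0.075).

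Gabarapl1, an ATG8 protein of the GABARAP branch, varied most between hearts of 1 group. It was at 11.67, 11.84, 11.93 and 12.32 in mdx HRTΔIKKβ hearts (SD 0.27) and at 12.05, 12.13 and 11.92 in mdx IKKβf/f hearts (SD 0.10), and its second probe set gave 10.47, 10.73, 10.83 and 11.12 in mdx HRTΔIKKβ hearts against 10.82, 10.89 and 10.78 in mdx IKKβf/f hearts. In both sets the lowest and the highest of all 7 hearts carried the deletion, heart 1 and heart 4. The means differed by −0.09 ± 0.14 (adjusted p = 0.90) and −0.04 ± 0.14. Without heart 4 the first of these was −0.22 (unadjusted p = 0.050, adjusted p = 0.76). The other measured ATG8 genes, Gabarap and Gabarapl2, differed by 0.09 ± 0.08 and 0.11 ± 0.07.

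Sqstm1, which encodes the receptor p62 that ties ubiquitin-tagged cargo to LC3 and is itself degraded with it, had the second lowest difference among the member genes. It was at 12.33, 12.13, 12.27 and 12.57 in mdx HRTΔIKKβ hearts and at 12.52, 12.68 and 12.44 in mdx IKKβf/f hearts. Hearts 1, 2 and 3 with the deletion lay below all controls, and heart 4 lay between controls 1 and 2. The difference was −0.22 ± 0.11 (unadjusted p = 0.083, adjusted p = 0.80), and without heart 4 it was −0.30 (unadjusted p = 0.012, adjusted p = 0.76). The dimmer probe set did not share it, at 6.93, 6.81, 7.17 and 7.24 in mdx HRTΔIKKβ hearts and 7.18, 7.00 and 6.90 in mdx IKKβf/f hearts (0.01 ± 0.12). The mean of both probe sets differed by −0.11 (unadjusted p = 0.35), and with array weights the brighter set differed by −0.14 (unadjusted p = 0.22).

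**Figure D2:**
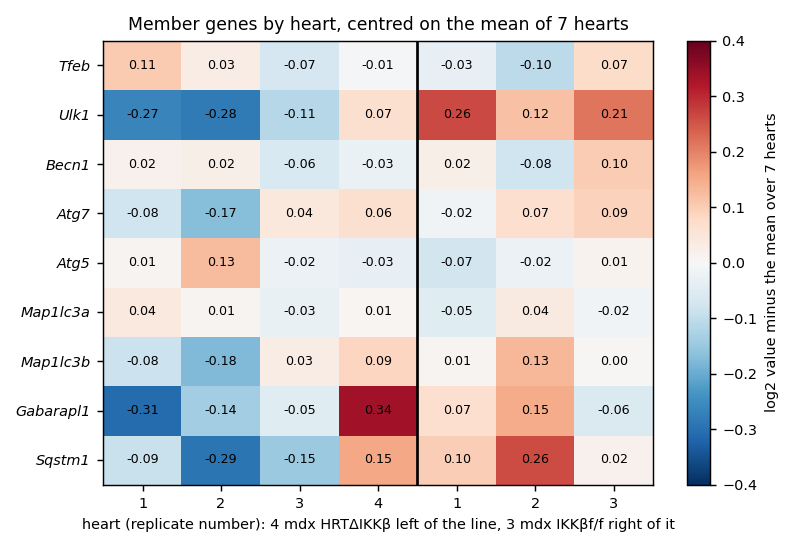
Each cell is the log2 value of a member gene (row, brightest probe set) in a heart (column, by replicate number), minus that gene's mean over the 7 hearts; mdx HRTΔIKKβ hearts are left of the line and mdx IKKβf/f hearts right of it. Red is above and blue below the mean, and Ulk1, Gabarapl1 and Sqstm1 show the widest spread, with mdx HRTΔIKKβ heart 4 above its own group's other hearts in each of them.

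Read across genes, the hearts with the deletion did not form 1 block. For Ulk1, Gabarapl1, Sqstm1, Map1lc3b and Atg7, heart 4 was the highest of the mdx HRTΔIKKβ hearts, and heart 1 or heart 2 was the lowest. The mean of the 9 centred member genes was −0.07, −0.10, −0.05 and 0.07 in mdx HRTΔIKKβ hearts and 0.03, 0.06 and 0.05 in mdx IKKβf/f hearts. Heart 4 thus had the highest mean of all 7 and the other 3 hearts with the deletion lay below the controls. Heart 2 with the deletion held the lowest value for 4 of the 9 genes and the highest for 1. The same heart had the highest summed adipocyte markers (1.91) and B and plasma cell markers (2.42) of all hearts, and the part of these in its member values was not tested.

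**Figure D3:**
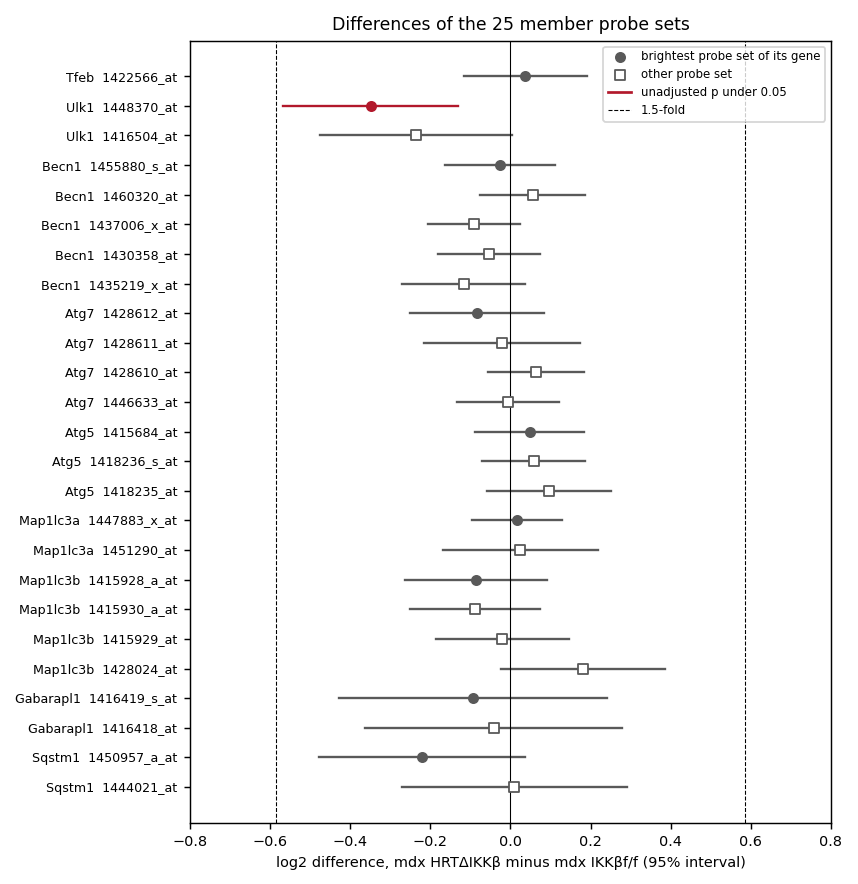
Difference in log2 value, mdx HRTΔIKKβ minus mdx IKKβf/f (horizontal axis), with its 95% interval from the limma fit for each of the 25 member probe sets, filled circles for the brightest of a gene and open squares for the others. Dashed lines mark 1.5-fold; all intervals lie inside them, and the interval of the brighter Ulk1 probe set, in red, is the one that leaves out 0.

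Of the 8 member genes with more than 1 probe set, 4 had probe sets of both signs (Becn1, Atg7, Map1lc3b and Sqstm1). Over all 25 probe sets, 10 had a higher and 15 a lower mean in mdx HRTΔIKKβ hearts. Apart from the 2 Ulk1 sets, the furthest from 0 was that of Sqstm1 at 0.22 below the controls.

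The wider pathway was split between the directions. Over 11 lists of autophagy, mitophagy and lysosome genes, 138 of 145 genes were measured, the member genes included, of which 67 had a higher and 71 a lower mean, 6 were higher at an unadjusted p of 0.05 (4.35%, beside 3.25% of all genes) and 7 lower (5.07%, beside 2.95%), and none passed an adjusted p. Their median difference was −0.01, beside −0.01 for all genes. Without the member genes, 6 of 129 were higher and 6 lower at the unadjusted p. Only Stbd1 and Ddit4 differed by more than 1.5-fold.

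Of the cargo receptors beside Sqstm1, Stbd1, which binds glycogen for breakdown in the lysosome, was at 8.65, 8.66, 8.23 and 8.65 in mdx HRTΔIKKβ hearts and at 7.91, 7.59 and 8.36 in mdx IKKβf/f hearts (0.60 ± 0.19, unadjusted p = 0.014, adjusted p = 0.80). Heart 3 with the deletion lay below control 3, and the other 3 lay above all controls. Retreg1, a receptor for endoplasmic reticulum, was at 12.35, 12.72, 13.26 and 13.22 in mdx HRTΔIKKβ hearts and at 13.43, 13.40 and 13.14 in mdx IKKβf/f hearts (−0.44 ± 0.22, unadjusted p = 0.089). As for Ulk1, hearts 1 and 2 with the deletion were the lowest, and without heart 1 the difference was −0.26, without heart 3 −0.56 (unadjusted p = 0.038).

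Mitophagy genes had no call at the unadjusted p among 12 measured of 14. Bnip3, the close relative of Bnip3l in the outer mitochondrial membrane, was at 13.31, 12.97, 13.12 and 13.12 in mdx HRTΔIKKβ hearts and at 12.97, 13.06 and 12.90 in mdx IKKβf/f hearts (0.15 ± 0.09), and the groups overlapped. Pink1, the kinase that marks depolarized mitochondria, differed by −0.19 ± 0.10 and Tomm7, a subunit of the import pore that holds PINK1, by 0.09 ± 0.05. With the mean of its probe sets, Pink1 differed by −0.30 (unadjusted p = 0.029).

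The lysosome list, with 32 of 36 genes measured, held 3 genes higher and 1 lower at the unadjusted p. Over all genes the shares were 3.25% higher and 2.95% lower. Scarb2, a lysosomal membrane protein, was at 12.84, 12.82, 12.78 and 12.75 in mdx HRTΔIKKβ hearts and at 12.55, 12.43 and 12.60 in mdx IKKβf/f hearts (0.27 ± 0.06, unadjusted p = 0.0021, adjusted p = 0.79). Lipa, the lysosomal acid lipase, was at 9.71, 9.72, 9.77 and 9.60 in mdx HRTΔIKKβ hearts and at 9.32, 9.46 and 9.45 in mdx IKKβf/f hearts (0.29 ± 0.06, unadjusted p = 0.0021, adjusted p = 0.79). For both, all hearts with the deletion lay above all controls. Psap, which encodes saposins, differed by 0.22 ± 0.09 and Ppt1, a thioesterase, by −0.29 ± 0.11, each with overlap. With the mean of its probe sets Ppt1 was at −0.081 (unadjusted p = 0.15), and by its probe set that is not of the _s_at kind Lipa was at 0.52 (unadjusted p = 0.055). In the whole list 20 of 32 genes had a higher mean. Lysosomal genes are strongly used by macrophages, whose markers moved with the groups as given above, and the part of macrophages in these values was not tested.

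Of the 14 fusion genes, 10 had a lower mean. Stx17, the syntaxin that lets autophagosomes fuse with lysosomes, was at 9.15, 9.20, 9.25 and 9.27 in mdx HRTΔIKKβ hearts and at 9.40, 9.50 and 9.37 in mdx IKKβf/f hearts (−0.21 ± 0.06, unadjusted p = 0.0069, adjusted p = 0.80). The tethering subunits Vps16 and Vps11 differed by −0.17 ± 0.07 (unadjusted p = 0.048) and −0.10 ± 0.05 (unadjusted p = 0.074). In all 3 genes the hearts with the deletion lay below the controls. Plekhm1, of the same list, was without overlap the other way, with a difference of 0.07 ± 0.05. Groups without overlap in either direction were present in 5.44% of all probe sets. Wipi1, which binds the lipid made by the Becn1 complex, differed by −0.15 ± 0.06 (unadjusted p = 0.041), with overlap. It was the only call among the 8 genes of its step, beside 2.95% of all genes that were lower. In the same step Atg2a and Atg2b, which carry lipid to the growing membrane, differed by −0.15 ± 0.07 and 0.12 ± 0.07.

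The kinases mTORC1 and AMPK act on ULK1 from above, mTORC1 to hold it back and AMPK to switch it on. Of 26 such genes, 11 had a higher and 15 a lower mean. At the unadjusted p, 1 was higher and 2 were lower, beside 3.25% and 2.95% of all genes. Fnip1, a partner of folliculin, was at 10.24, 10.42, 10.44 and 10.44 in mdx HRTΔIKKβ hearts and at 10.56, 10.66 and 10.54 in mdx IKKβf/f hearts (−0.20 ± 0.07, unadjusted p = 0.020), without overlap. Of 6 AMPK subunits, Prkag2 had a higher mean (0.29 ± 0.11) and 5 a lower one, with Prkab2 at −0.28 ± 0.11 and the other 4 from −0.14 to −0.05. Ddit4, a stress-induced inhibitor of mTORC1, was at 8.67, 8.84, 11.50 and 11.23 in mdx HRTΔIKKβ hearts (controls 8.25, 10.37 and 9.06). Its mean difference (0.83 ± 0.84) was about as large as its standard error. Among the hearts with the deletion, 1 and 2 were low and 3 and 4 high. Sesn1, of the same list, was split the same way, at 10.64, 10.71, 11.90 and 11.93 (controls 11.38, 11.77 and 11.39). The summed level of the 26 genes was −0.17, −0.08, 0.10 and 0.12 in mdx HRTΔIKKβ hearts (controls −0.03, 0.07 and −0.01). The part of this split in the member values was not tested.

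**Figure D4:**
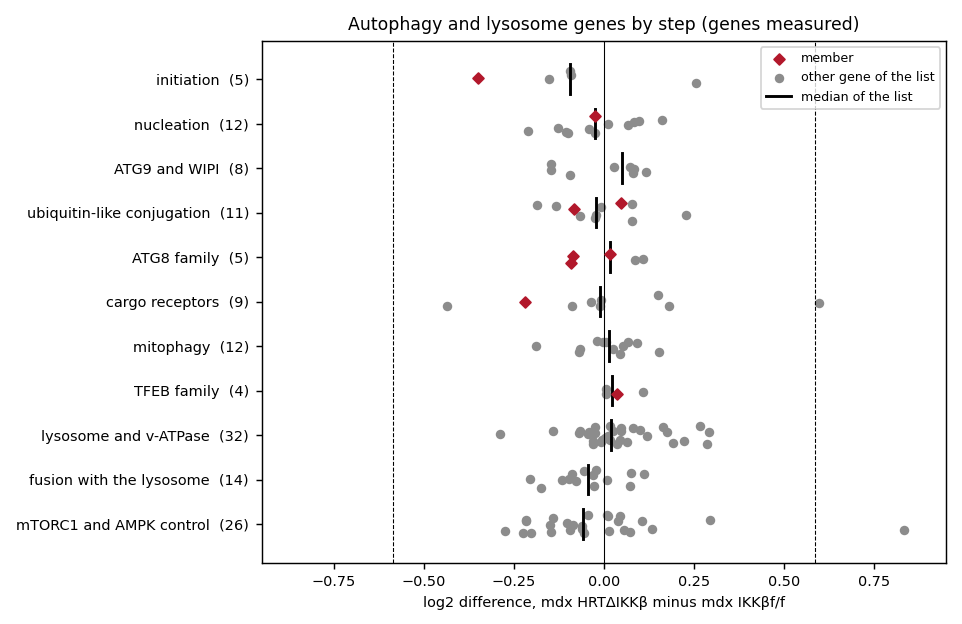
Difference in log2 value, mdx HRTΔIKKβ minus mdx IKKβf/f (horizontal axis), of each measured gene of the 11 lists (rows, with the number of genes measured), member genes as red diamonds and other genes as grey circles, by the brightest probe set. Vertical bars are list medians and dashed lines mark 1.5-fold; the medians lie from −0.09 to 0.05, and Stbd1 and Ddit4 are the points outside 1.5-fold.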

How the data were processed

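Biotin-labelled RNA from 7 whole hearts was hybridized to Affymetrix mouse arrays. The authors deposited log2 values made by RMA (background correction, quantile normalization and a summary per probe set); the submitters' processing notes name Partek and Affymetrix Expression Console, with no versions and without saying which made the table. Quantile normalization hides a global shift, and RMA compresses differences of dim probe sets.

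Groups were compared over all 45037 probe sets with limma 3.58.1 in R 4.3.3 (lmFit, eBayes, two-sided, Benjamini-Hochberg, no filter), as 4 against 3 arrays. The number of arrays limits the precision. The study calls the samples biological replicates. Probe sets with 1 gene symbol numbered 34945, those with several 932 and those with none 9160. A gene stands for its probe set of highest mean over 7 arrays. All member probe sets, Ikbkb and up to 3 further genes of smallest p per list were named. Psap, Ddit4, Sesn1, Plekhm1 and Ulk2 were named after their values were seen. Members and lists were chosen with earlier results of these data known. Promoters came from RefSeq (GRCm38.p6). The procedure was run on simulated data as a check of the code. That check does not measure the power to detect differences as small as those of the member genes. Alternatives were other scaling, filters, variance models, array weights, the methods' t-test, a replicate block, other choices of probe set, and leaving out each heart.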

Additional observations from a re-analysis of the deposited data

Results flagged for a closer look

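In 57 results of member probe sets and pathway genes named by rule, 5 had a single mdx HRTΔIKKβ heart far from the other 3 of its group. This was judged by Dixon's criterion, which chance meets in about 1 of 20 groups. The Atg5 probe set with ties was at 8.45 in heart 2, the other 3 being tied, and the dimmest Map1lc3b probe set was at 5.89 in heart 2, below the others. Stbd1 was at 8.23 in heart 3, Vps11 at 8.53 in heart 4 and Fnip1 at 10.24 in heart 1.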

How the results depend on the processing

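No member gene passed an adjusted p of 0.05 or was higher at the unadjusted p under any of 17 alternatives. Ulk1 stayed lower at the unadjusted p in each, from −0.42 to −0.29 (adjusted p 0.65 to 0.96). The count of member genes lower was 1 to 3 when single hearts were left out, with 3 (Ulk1, Sqstm1 and Gabarapl1) without mdx HRTΔIKKβ replicate 4. With the replicate number as a block it was 2 (Ulk1 at −0.42, Sqstm1 at −0.30). That block leaves heart 4 without a partner. Deviations of same-numbered hearts correlated at −0.08, −0.38 and −0.04. The labels do not state any pairing by number, and these correlations cannot settle whether there was one. The median of the member genes was −0.012 with the mean of a gene's probe sets, and −0.12 to −0.036 when single hearts were left out.

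Of 153 values of the 9 member genes, 148 kept their direction, none crossed the adjusted threshold and 5 reversed: Gabarapl1 0.009 with array weights, Becn1 0.055 without _x_at and _s_at probe sets, and, without 1 heart, Becn1 (−0.074 to 0.017), Map1lc3a (−0.003 to 0.039) and Tfeb (−0.004 to 0.085). Of 542 values of 32 pathway genes, 10 reversed: Mitf −0.011 and Tfe3 −0.021 with a second quantile normalization, Tfe3 −0.058 with array weights, Tomm7 −0.013 with the mean of probe sets, and, without 1 heart, Tfe3 (−0.077 to 0.067), Tfec (−0.005 to 0.256) and Mitf (−0.041 to 0.04). The cause was not tested. Of 11 pathway genes named by rule at the unadjusted p, Scarb2 and Stx17 stayed past it in all 17, and each of the other 9 lost it under at least 1. Of 21 pathway genes named by rule and not past it, 11 passed it under at least 1 alternative (Vmp1, Atg2a, Atg12, Atg4c, Atg10, Ncoa4, Retreg1, Pink1, Bnip3, Tomm7 and Vps11). With 7 arrays and RMA values, signal over background could not be given per probe set.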
